A study of Mus musculus with 6 samples.

Results

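The vomeronasal type 1 receptor (V1R) genes were read in mouse testis under 164 gene names, out of 34844 gene and transcript names on the array. They were chosen by name, taking each non-control probe whose gene name in the array files began with Vmn1r, which gave 176 of 55681 probes. The probes were divided by their mm9 position into 31 on chromosome 7 within 5 Mb of the Gipr probe, 36 on the rest of chromosome 7, 3 on unplaced sequence of chromosome 7 and 106 on other chromosomes. The samples were whole testes of 3 Gipr knockout (Gipr-/-) mice and 3 wild-type (Gipr+/+) mice, all of strain C57BL/6 and 8 weeks of age, with 1 single-colour array for each animal. Gipr encodes the receptor for the gut hormone glucose-dependent insulinotropic polypeptide. The making of the knockout allele and the kinship of the animals were not given in the sources used here. The family as a whole was selected on its detection and its knockout against wild-type values on these arrays, so all knockout minus wild-type values of Vmn1r probes are given as a description.

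V1Rs are G protein-coupled receptors of the sensory neurons in the apical layer of the vomeronasal organ, the part of the mouse nose that detects pheromones. They respond to small molecules such as steroids excreted in urine. Each neuron mostly expresses a single receptor gene, together with the G protein subunit Gnai2 and the cation channel Trpc2, which turns receptor activation into a current. The genes stand in clusters on several mouse chromosomes, and neighbours within a cluster are often close copies of each other.

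The probes are 60 bases long, and their sequences come from the array files. Among the 176 probes there were 39 pairs that matched at 85% or more of the bases over an overlap of at least 50 bases without gaps. These pairs involved 50 probes, of which 20 were tested between the genotypes. The sequences below belong to receptors of chromosome 7 that recur in the results, and capitals mark the bases that differ within a set. The first set reads the same stretch of Vmn1r122 (chr7:21918382-21918441, minus strand), Vmn1r178 (chr7:24679255-24679314, plus strand) and Vmn1r181 (chr7:24769833-24769892, plus strand), and 50 of the 55 shared positions are identical in all 3:
Vmn1r122: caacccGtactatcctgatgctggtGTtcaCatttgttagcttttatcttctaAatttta
Vmn1r178: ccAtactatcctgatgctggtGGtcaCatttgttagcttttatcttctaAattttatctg
Vmn1r181: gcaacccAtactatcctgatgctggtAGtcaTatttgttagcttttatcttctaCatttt
The second set reads Vmn1r101 (chr7:21027337-21027396, minus strand) and Vmn1r183 (chr7:24840332-24840391, plus strand), which are identical at 54 of 59 shared positions although the probes lie at opposite ends of the cluster:
Vmn1r101: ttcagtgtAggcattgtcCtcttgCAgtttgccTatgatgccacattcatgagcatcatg
Vmn1r183: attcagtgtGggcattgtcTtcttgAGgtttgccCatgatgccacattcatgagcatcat
The third set reads Vmn1r124 (chr7:22044713-22044772, minus strand), another site of Vmn1r183 (chr7:24840651-24840710, plus strand) and Vmn1r169 (chr7:24363059-24363118, plus strand), with 47 of 60 positions identical in all 3:
Vmn1r124: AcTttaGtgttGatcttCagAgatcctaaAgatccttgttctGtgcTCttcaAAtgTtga
Vmn1r183: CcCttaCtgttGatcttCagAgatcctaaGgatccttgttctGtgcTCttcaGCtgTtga
Vmn1r169: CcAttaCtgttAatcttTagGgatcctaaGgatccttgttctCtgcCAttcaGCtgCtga
The last set shows a pair of receptors whose probes overlap by 27 bases, 26 of them identical, and whose values differed, Vmn1r104 (chr7:21119614-21119673) and Vmn1r157 (chr7:21003686-21003745), both on the plus strand:
Vmn1r104: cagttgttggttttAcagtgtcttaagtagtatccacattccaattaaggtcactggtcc
Vmn1r157: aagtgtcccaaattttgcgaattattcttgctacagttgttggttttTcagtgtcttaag
Whether a probe of these sets read 1 receptor or several was not tested. Outside the family, a run of 20 identical bases was shared by only 1 of the 52 tested probes (Vmn1r168, with 1 probe that has no gene name).

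The libraries matched their labels. Gipr gave processed signals, the background-corrected spot brightness in arbitrary units, of 155, 145 and 176 in Gipr knockout testes, against 782, 820 and 1043 in wild-type testes (limma adjusted p = 0.00311), and where its probe lies relative to the deleted sequence was not stated. All 6 spermatid, 4 spermatocyte and 4 spermatogonial markers were well above background on all 6 arrays, as were 6 of 7 Sertoli cell markers and the 5 Leydig cell markers on the array. Of 4 epididymal markers only Defb15 was, while Adam7, Crisp1 and Lcn5 were not above background on every array. Between 70.6% and 76.0% of the non-control spots on an array were well above background, and 0 spots were saturated. Knockout arrays lay in row 1 of the slide and wild-type arrays in row 2, so the row cannot be told apart from the genotype. The number of arrays, 3 for each genotype, limits the precision, and in whole-tissue RNA fewer expressing cells and less RNA per cell cannot be told apart.

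Most V1R probes gave no signal that could be told from background, and a minority was read on every array. Of the 176 probes, 43 were well above background on all 6 arrays, and 96 were on none. Testing required a signal well above background in every array of 1 genotype or of both, which held for 52 probes of 48 genes (29.5%), compared with 69.8% of all measured probes. The other 124 probes were not tested, and 28 of them were above background on at least 1 array. The type 2 vomeronasal receptors (Vmn2r), which belong to the basal layer of the organ, were tested for 47 of 124 probes (37.9%), and the olfactory receptors (Olfr) for 234 of 1196 (19.6%). Bitter taste receptors (Tas2r) were tested for 4 of 37 probes and trace amine-associated receptors (Taar) for 0 of 15. The median GC content was 40.0% in tested and 36.7% in untested V1R probes, and its part in detection was not tested.

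The count of detected V1R probes differed between arrays within each genotype. It was 71, 58 and 51 in Gipr knockout testes, against 51, 57 and 59 in wild-type testes. The knockout array with 71 was also the array with the largest share of all probes above background, 75.4% compared with 69.7% to 72.0% on the other 5 arrays. The lower flag of the scanner software, which asks only that a spot differ from its background, put 82 V1R probes through the same rule in place of 52.

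**Figure D1:**
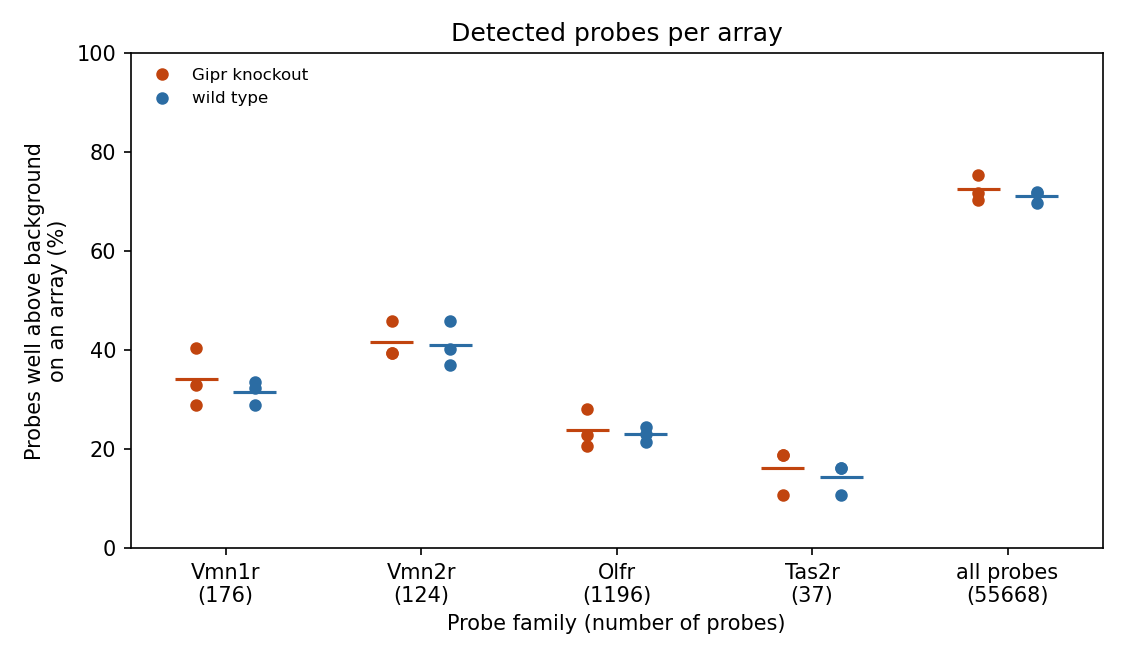
Share of probes well above background on each array (y axis, %) for 5 probe sets (x axis, number of probes in brackets), with 1 point for each array and a bar for the mean of 3 arrays. Vmn1r probes lie between 29.0% and 40.3% in Gipr knockout and between 29.0% and 33.5% in wild-type testes, above Olfr and below the share of all probes.

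By chromosome, the tested V1R probes were 25 of 67 on chromosome 7, 15 of 55 on chromosome 6, 10 of 36 on chromosome 13 and 2 of 3 on unplaced sequence of chromosome 7. On chromosome 17 none was tested (0 of 14), with 6 of those probes above background on some array, and the single probe on chromosome 4 was above background on none. The cluster members on chromosome 7 were therefore tested in 37.3% of cases and those on chromosome 6 in 27.3%.

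Printing of some probes at 10 places on each array showed how firm such a reading was. Vmn1r58 (older symbol V1rd4) was well above background at every spot kept, and its array medians were 23.1, 27.4 and 21.2 in Gipr knockout testes, against 22.4, 26.4 and 26.3 in wild-type testes. Its spots on 1 array spread by an SD between 0.20 and 0.43 on the log2 scale. Vmn1r81 was above background at 5, 0 and 1 spots in the knockout testes, against 1, 5 and 3 spots in the wild-type testes, with array medians between 7.44 and 12.4. Its signal thus straddled the limit of detection on these arrays. Vmn1r233 was above background at 0 spots on any array, with medians between 1.87 and 2.67.

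**Figure D2:**
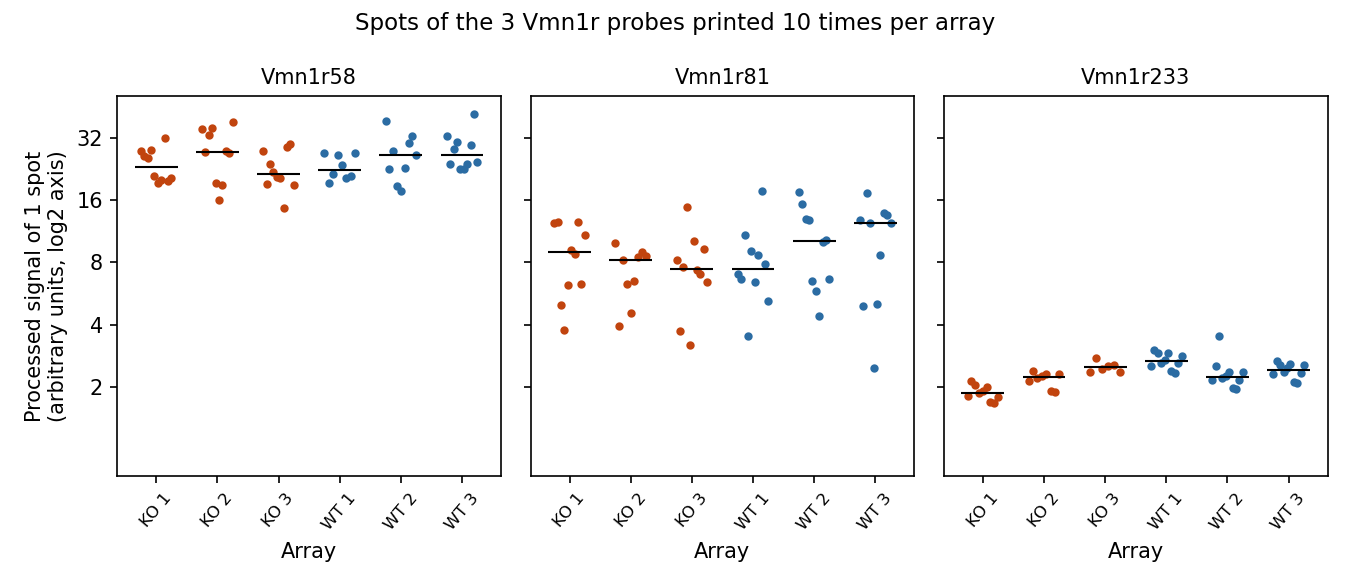
Processed signal of single spots (y axis, arbitrary units on a log2 axis) on the 3 Gipr knockout (KO) and 3 wild-type (WT) arrays (x axis) for the V1R probes printed 10 times, leaving out spots marked as outliers, with a bar at the median. Vmn1r58 lies at 14.6 to 41.7 and Vmn1r233 at 1.67 to 3.52, while Vmn1r81 covers 2.49 to 17.8.

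Probes for the same receptor often disagreed about detection. Of 11 genes with several probes (23 probes), all probes were tested in 3 genes and none in 2, and in the other 6 (Vmn1r121, Vmn1r178, Vmn1r183, Vmn1r168, Vmn1r30 and Vmn1r45) at least 1 probe was tested and at least 1 was not. The undetected probe of Vmn1r178 is shown because it lies close to the detected one printed above:
Vmn1r178 (probe 2): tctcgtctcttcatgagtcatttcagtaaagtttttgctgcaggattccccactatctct
The detected probe gave 445, 332 and 444 in Gipr knockout testes, against 237, 253 and 279 in wild-type testes. The undetected one, at chr7:24679343-24679402, stayed between 1.78 and 4.11 in the knockout testes, against 2.11 to 4.02 in the wild-type testes, and was above background on no array. The detected one is the probe that shares most of its letters with Vmn1r122 and Vmn1r181. Vmn1r121 behaved alike, with 83.0, 58.5 and 75.3 in knockout testes, against 42.2, 41.4 and 50.3 in wild-type testes at chr7:23591781-23591840, and no array above background at chr7:23591391-23591450. Vmn1r217 (older symbol V1rh14), on the minus strand of chromosome 13, had adjacent probes that were both tested. The one at chr13:23205741-23205800 gave 1149, 1182 and 958 in knockout testes, against 1192, 1249 and 1301 in wild-type testes, and the one at chr13:23205801-23205860 gave 27.3, 16.6 and 16.3, against 12.5, 19.7 and 16.3. Their knockout minus wild-type differences had opposite signs, -0.20 (SE 0.11) and 0.28 (SE 0.24), and in both the genotypes overlapped.

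Knockout and wild-type testes were then compared with limma across all 38882 tested probes, two-sided and with Benjamini-Hochberg adjustment. None of the 52 V1R probes passed an adjusted p of 0.05 (0 of 52, lowest adjusted p = 0.204), in a table where 18 probes (0.0463%) passed, 2 of them higher (0.00514%) and 16 lower (0.0412%) in the knockout testes. At an unadjusted p under 0.05 there were 11 V1R probes, all higher in the knockout testes and all on chromosome 7, while 7.66% of all tested probes reached that measure, 4.41% higher and 3.25% lower. Values of 12 V1R probes were higher on every knockout array than on any wild-type array, and of 1 probe (Vmn1r44) lower on every knockout array, which held for 7.87% and 5.49% of all tested probes. Since the family was selected with this comparison in view, these counts are set beside each other and nothing is read from them. The lower count was 9, 5 and 2 without knockout replicate 1, 2 and 3, and 6 and 3 without wild-type replicate 1 and 3. Leaving out an array can only keep or raise such a count, and the shares of all tested probes are not given for fewer arrays. The median difference of the 52 probes was -0.04 on the log2 scale, beside 0.01 over all tested probes, with 24 above and 28 below 0.

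Of the 12 probes that were higher on every knockout array, 10 stood together on chromosome 7, between 1.28 and 5.10 Mb to the right of the Gipr probe. They read 8 receptors: Vmn1r101, Vmn1r104, Vmn1r122, Vmn1r124, Vmn1r121, Vmn1r178, Vmn1r181 and Vmn1r183, the last pair with 2 probes each. Their signals were 1.42 to 1.70 times as high in Gipr knockout as in wild-type testes, and none passed the adjusted test (adjusted p between 0.204 and 0.505, unadjusted p between 0.00025 and 0.0044). The difference was widest for Vmn1r104, with 91.8, 92.7 and 81.1 in knockout testes, against 45.7, 53.3 and 56.0 in wild-type testes. On the scaled log2 values this is a difference of 0.77 (SE 0.10, adjusted p = 0.204 by limma), and the lowest knockout array lay above the highest wild-type array.

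Vmn1r181 (older symbol V1rd20) was read by a pair of tested probes. Its probe at chr7:24769833-24769892 gave 632, 499 and 647 in knockout testes, against 339, 364 and 407 in wild-type testes, a difference of 0.66 (SE 0.10, adjusted p = 0.249). The next probe of the gene, at chr7:24769917-24769976, had another sequence and gave 551, 386 and 483, against 288, 307 and 341, a difference of 0.58 (SE 0.11, adjusted p = 0.450). For both probes, the second knockout array was the lowest of its genotype and still above all wild-type arrays. That second sequence is shown because it had no match of the kind described above to any other V1R probe, although it shared a run of 20 bases with 1 of them:
Vmn1r181 (probe 2): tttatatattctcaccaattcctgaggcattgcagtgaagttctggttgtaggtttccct

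Vmn1r122 and Vmn1r178, which share the first set of sequences with Vmn1r181, also had their second knockout array lowest and all knockout arrays above the wild-type arrays. Vmn1r122 gave 376, 279 and 346 in knockout testes, against 208, 220 and 238 in wild-type testes, a difference of 0.56 (SE 0.09, adjusted p = 0.351). Vmn1r178 (older symbol V1rd13) differed by 0.65 (SE 0.11, adjusted p = 0.351). In the second set, Vmn1r101 gave 39.6, 32.5 and 37.1, against 22.8, 25.9 and 23.9, a difference of 0.58 (SE 0.08, adjusted p = 0.207). Its partner, the first probe of Vmn1r183 (older symbol V1rd15), gave 200, 149 and 182 in knockout testes, against 96.4, 113 and 124 in wild-type testes, a difference of 0.66 (SE 0.11, adjusted p = 0.371). The genotypes did not overlap in any of these probes.

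In the third set, the other tested probe of Vmn1r183 gave 318, 248 and 324 in knockout testes, against 198, 192 and 230 in wild-type testes, a difference of 0.50 (SE 0.10, adjusted p = 0.463). A further probe of Vmn1r183 was not tested. Vmn1r124 gave 110, 78.6 and 103, against 59.4, 65.6 and 75.3, with a difference of 0.52 (SE 0.12, adjusted p = 0.505). Before scaling, its second knockout array was only just above the highest wild-type array, and on the scaled values the gap was wider. Vmn1r169, the third of that set, was above background on 3 knockout arrays and 1 wild-type array, with 11.7, 12.9 and 14.6, against 7.32, 8.82 and 13.3, and its genotypes overlapped (difference 0.44, SE 0.21). Vmn1r121, outside these sets, differed by 0.67 (SE 0.12, adjusted p = 0.372). Of the 10 probes, 7 belong to at least 1 of the pairs of like sequence, and whether they are separate readings was not tested.

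Not every receptor of the stretch was higher in the knockout testes. Vmn1r157 gave 31.8, 27.2 and 30.4 in knockout testes, against 24.7, 32.4 and 40.9 in wild-type testes, a difference of -0.12 (SE 0.16). It is the receptor whose probe overlaps that of Vmn1r104 at 26 of 27 positions, yet its genotypes overlapped fully. Vmn1r168 gave 29.0, 23.2 and 28.5, against 25.7, 21.3 and 32.7, and Vmn1r173 gave 61.9, 60.6 and 49.95, against 54.7, 55.3 and 58.6. Both differed by less than their standard error (0.02, SE 0.15, and 0.01, SE 0.10), with 95% intervals of 0.79 to 1.31-fold and 0.85 to 1.20-fold. From Vmn1r157 to Vmn1r183 there were 34 V1R probes, 14 of them tested, with 13 differences above 0 and 1 below. Over all 38882 tested probes, 20519 were above 0 and 18363 below. The 7 tested probes of other genes in the same stretch had 2 above and 5 below, and 1 of them (Gm5156, named after its values were seen) passed, at -2.24 (adjusted p = 0.0449). The ends of the stretch were chosen with the values known, and Vmn1r169 was tested only through its knockout arrays. Nothing is therefore read from these counts.

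**Figure D3:**
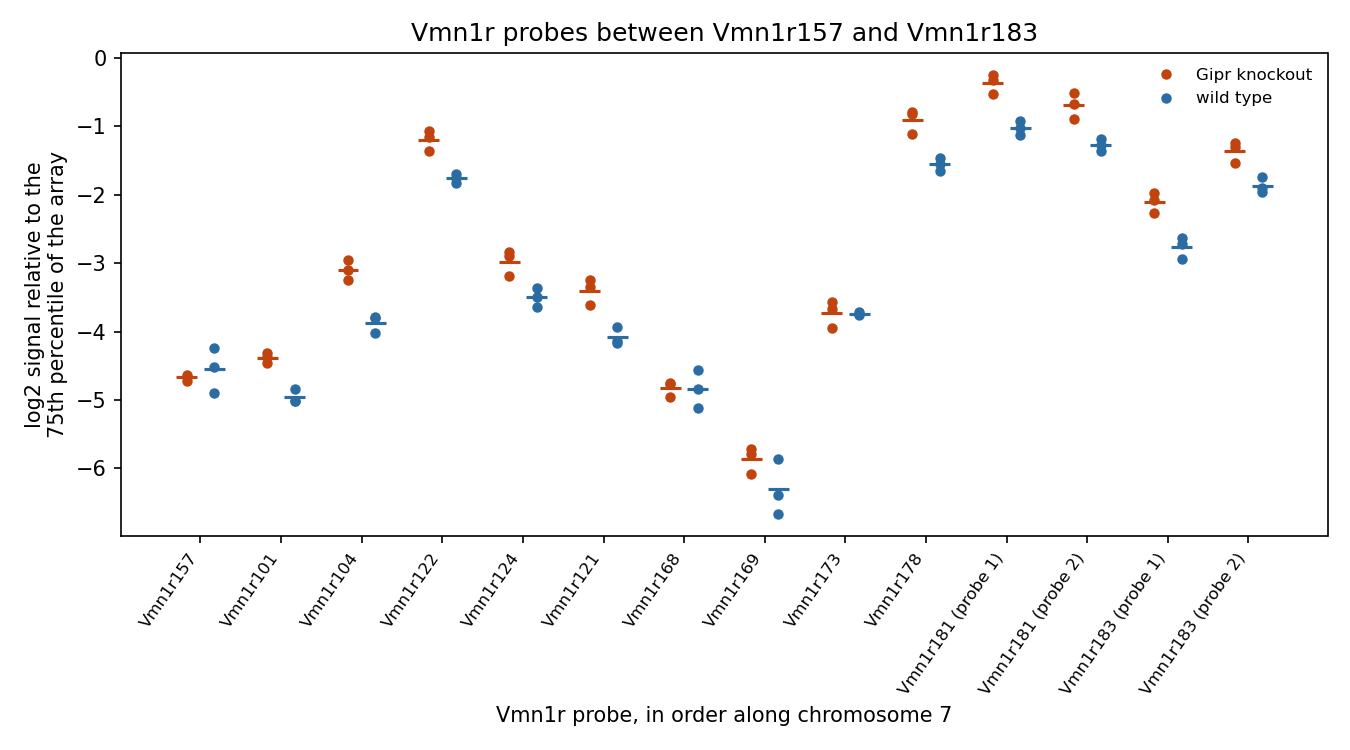
Log2 signal relative to the 75th percentile of the array (y axis) for the 14 tested V1R probes from Vmn1r157 to Vmn1r183 in order along chromosome 7 (x axis), with 1 point for each array and a bar for the mean of 3 Gipr knockout (left of each pair) or 3 wild-type arrays. In 10 probes all knockout points lie above all wild-type points, and in Vmn1r157, Vmn1r168, Vmn1r169 and Vmn1r173 they overlap.

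By distance from Gipr, the median difference was 0.48 over the 12 tested probes within 5 Mb, 0.15 over 13 on the rest of chromosome 7, -0.10 over 2 on its unplaced sequence and -0.13 over 25 on other chromosomes. The 5 Mb limit ran through the stretch: Vmn1r178, at 4.94 Mb, was the last probe inside with 0.65, and the first probe of Vmn1r181, at 5.03 Mb, the first outside with 0.66. Outside the family and leaving out Gipr itself, 173 tested probes lay within 5 Mb, with a median of 0.01, 92 above and 81 below 0. Of these, 6 passed, all lower in the knockout testes, beside 0.0412% of all tested probes. On the left side of Gipr, both tested probes named Vmn1r90 overlapped between genotypes, with differences of 0.10 (SE 0.16) and -0.39 (SE 0.20). With normexp background correction the median within 5 Mb was 0.15, and without the filter on dim probes it was -0.07. For the rest of chromosome 7 it was 0.03 and -0.17 under these settings, and -0.02 without knockout replicate 1. Without the filter these medians cover all 31 and 36 probes, tested or not, and the differences of the tested probes are unchanged.

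**Figure D4:**
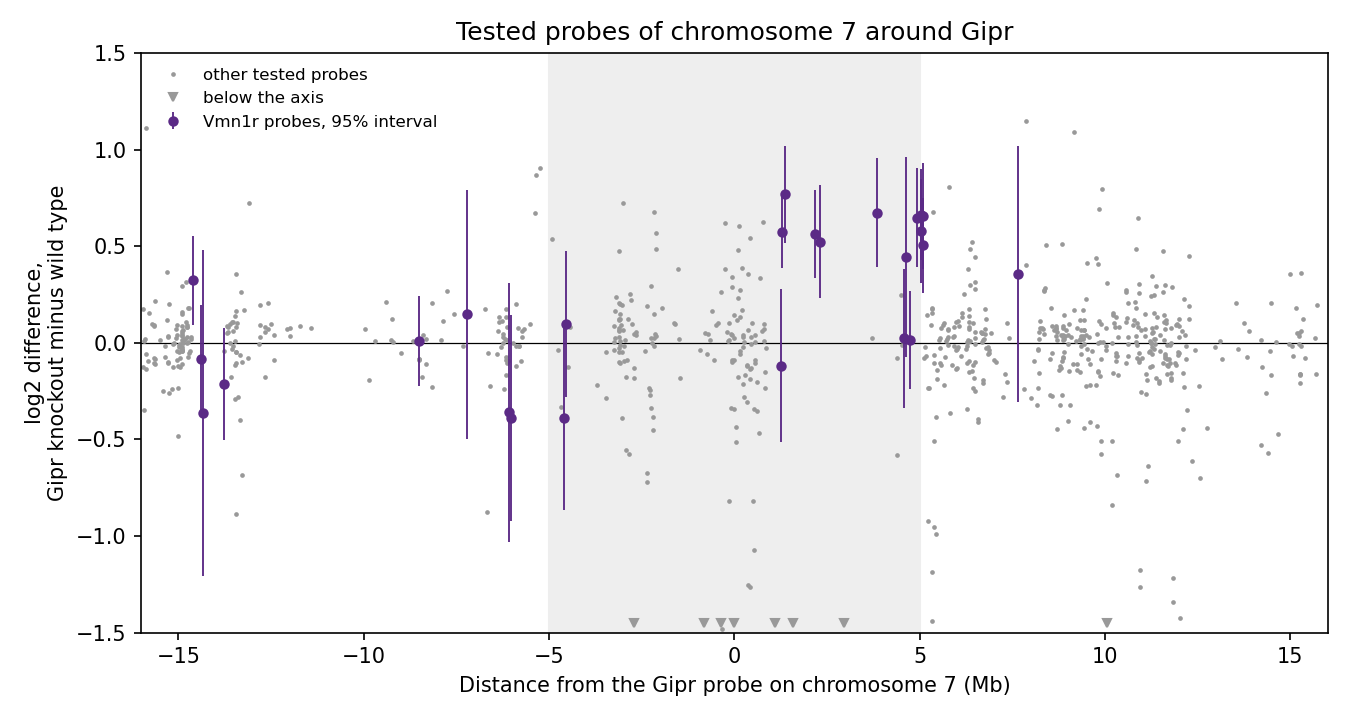
Difference of Gipr knockout minus wild type (y axis, log2) against distance from the Gipr probe (x axis, Mb) for tested probes of chromosome 7, with V1R probes in purple with 95% intervals, other probes in grey and the 5 Mb window shaded. The V1R probes right of Gipr lie between -0.12 and 0.77, and triangles mark 8 probes outside the family, Gipr among them, that lie below the axis.

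The 10 probes are those of the stretch whose genotypes do not overlap, so their common sign under other settings is no sign of stability. The first probe of Vmn1r181 passed in 2 of 16 alternative settings, with an adjusted p of 0.023 under normexp and 0.036 with a mean-variance trend and robust fit, within a range from 0.023 to 0.649. The other 9 probes passed in 0 settings, and their lowest adjusted p was 0.079 (Vmn1r178). The smallest difference of any of them was 0.24 (Vmn1r101 under normexp).

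Elsewhere on chromosome 7, Vmn1r56 (older symbol V1rd3), 14.6 Mb to the left of Gipr, gave 53.5, 50.7 and 58.9 in knockout testes, against 47.5, 41.7 and 40.3 in wild-type testes. It was higher in all knockout arrays by 0.32 (SE 0.10, adjusted p = 0.616 by limma). Vmn1r70 (older symbol V1rl1), 8.52 Mb to the left, gave 268, 246 and 220, against 231, 256 and 234. With 0.01 (SE 0.10) it had the smallest difference of the V1R probes read on all arrays, and its 95% interval was 0.86 to 1.18-fold. Vmn1r185, 7.65 Mb to the right and so the next tested receptor beyond Vmn1r183, differed by 0.36 with an SE of 0.28.

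On chromosome 6, Vmn1r40 (older symbol V1rb7) gave 55.2, 50.2 and 53.6 in knockout testes, against 48.5, 50.2 and 50.6 in wild-type testes. Its scaled values did not overlap, with a difference of 0.08 (SE 0.05, adjusted p = 0.720 by limma), which was -0.01 under normexp. Vmn1r44 (older symbol V1rb4) gave 88.4, 72.9 and 84.8, against 84.4, 86.5 and 94.2, and differed by -0.12 (SE 0.07, adjusted p = 0.679). Vmn1r53 (older symbol V1rb3) gave 203, 153 and 173 in knockout testes, against 157, 162 and 217 in wild-type testes, and overlapped (difference -0.03, SE 0.13). Of the 15 tested probes of chromosome 6, 3 were above 0 and 12 below.

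Vmn1r27 was the one receptor above background on all knockout arrays and on no wild-type array. Its signals were 13.4, 11.5 and 13.4 in knockout testes, against 12.6, 8.86 and 11.1 in wild-type testes, so the genotypes overlapped in brightness. It was tested only through its knockout arrays, and its difference was 0.24 (SE 0.13), and -0.01 under normexp background correction, so no direction is given.

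On chromosome 13, Vmn1r195 (older symbol V1ri6) gave 83.2, 103 and 109 in knockout testes, against 90.5, 100 and 118 in wild-type testes. Vmn1r209 gave 23.4, 25.1 and 21.3, against 27.0, 29.5 and 16.96. Both overlapped between genotypes (differences -0.07, SE 0.15, and -0.05, SE 0.23). The 10 tested probes of that chromosome had 3 differences above 0 and 7 below, and none of them was free of overlap.

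The precision varied among the 52 tested probes. Their standard errors ran between 0.055 and 0.349 on the log2 scale with a median of 0.148, and their array signals between 7.32 and 1301. The 96 probes above background on no array had signals between 1.64 and 10.23.

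The vomeronasal machinery beside the receptors was also read in testis. Of 33 probes for signal transduction genes, 32 were tested, and none passed between genotypes (15 above 0 and 17 below, median -0.01, and 4 at an unadjusted p under 0.05). Of all tested probes, 7.66% fell under that unadjusted p by limma. Trpc2, the channel named above, was tested with 3 probes. The first gave 227, 205 and 196 in knockout testes, against 229, 223 and 262 in wild-type testes (difference -0.20, SE 0.08, adjusted p = 0.649 by limma), and the others differed by -0.07 and -0.08. Only that first Trpc2 probe was lower on every knockout array. Gnai2, the G protein subunit of V1R neurons, gave 6562, 5454 and 6197 in knockout testes, against 6422, 5926 and 5357 in wild-type testes, a difference of 0.03 (SE 0.10). Gnao1, its counterpart in Vmn2r neurons, had differences of 0.21 (SE 0.18) and 0.08 (SE 0.12).

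Gng8, a G protein gamma subunit of vomeronasal neurons, gave 241, 229 and 173 in knockout testes, against 267, 275 and 256 in wild-type testes. It was lower on all knockout arrays, by -0.34 (SE 0.14, adjusted p = 0.649 by limma). Gng8 lies on chromosome 7 like Gipr, as do Trpc2, Stim1 and Omp. Distances from Gipr are not given for these lists, and whether location plays a part was not tested. Further members of low unadjusted p were Plcb4, a phospholipase C (-0.30 and, from another probe, 0.26), Hcn2, a pacemaker channel (-0.19), and Stim1, a calcium sensor of the endoplasmic reticulum (0.16). None passed, and these Plcb4 probes ran in opposite directions, while the other tested probes of Plcb4 differed by -0.007 and -0.004. The other tested probe differed by 0.02 for Hcn2 and by 0.15 for Stim1.

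Of 32 probes for genes of vomeronasal and olfactory neuron identity, 21 were tested and none passed (15 above 0 and 6 below, and 1 at an unadjusted p under 0.05, beside 7.66% of all tested probes). Omp, the marker of mature olfactory and vomeronasal neurons, gave 39.0, 34.8 and 40.3 in knockout testes, against 36.7, 32.4 and 30.8 in wild-type testes (difference 0.18, SE 0.09). The axon guidance receptor Robo2 had the lowest p of that list, with 23.7, 22.1 and 19.98, against 20.8, 12.4 and 12.1 (difference 0.57, SE 0.23, adjusted p = 0.642 by limma), and its genotypes overlapped. That Robo2 probe was above background on 3 knockout and 2 wild-type arrays, and the other Robo2 probes on none. The transcription factor Ebf2 (0.25) and the adhesion molecule Ncam1 (-0.17) overlapped as well. Other tested Ncam1 probes differed by -0.17 and 0.08.

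Among the 47 tested Vmn2r probes, 20 were above 0 and 27 below, with a median of -0.05 and none passing (2 at an unadjusted p under 0.05, beside 7.66% of all tested probes). Vmn2r112 gave 50.6, 35.5 and 36.7 in knockout testes, against 27.8, 31.2 and 31.7 in wild-type testes, a difference of 0.41 (SE 0.13, adjusted p = 0.628 by limma). Of the 47 probes, 5 were higher on every knockout array, Vmn2r112, Vmn2r111 (0.34) and Vmn2r18 (0.19) among them. On every knockout array 3 were lower, Vmn2r121 (-0.22) among them. Of all tested probes, 7.87% were so placed above and 5.49% below. Another probe of Vmn2r111 (0.40) and of Vmn2r121 (-0.05) overlapped between genotypes, and another probe of Vmn2r112 was above background on no array. The formyl peptide receptors, of which some are vomeronasal receptors in mice, were tested for Fpr-rs6 (-0.19) and Fpr-rs3 (0.07), 2 of 6 probes. Of the major histocompatibility genes that accompany Vmn2r receptors, 3 of 11 probes were tested: B2m, their light chain (-0.27), H2-M11 (-0.26) and H2-M10.3 (0.02). That H2-M10.3 probe was above background on 3 knockout arrays and 1 wild-type array, and the other H2-M10.3 probe on no array. Among pheromone proteins 6 of 19 probes were tested, and the urinary proteins Mup19 (-0.31), Mup21 (0.20), Mup4 (0.06) and the odorant-binding protein Obp1a (0.05) overlapped between genotypes. Another probe of Mup4 was above background on no array. In none of these 3 lists did a probe pass (0 of 2, 0 of 3 and 0 of 6) or fall under an unadjusted p of 0.05.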

How the data were processed

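Cy3-labelled cRNA from whole testis was hybridised to Agilent single-colour mouse arrays, per the labels' protocols. The deposited files hold the scanner's spot intensity, read with Agilent Feature Extraction 10.7.3.1, and positions on build mm9, per the file headers. The processed signal is background-corrected on a linear scale. The authors' deposited value table holds linear intensity values scaled to an array median of 200, and served as an alternative.

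From these, the log2 of the deposited signal was taken, outlier spots were left out (117 to 149 for each array), log2 values were averaged over the spots of each probe, and each array's 75th percentile was taken off. A probe counted as above background on an array when more than 50% of its remaining spots carried the scanner's well-above-background flag, and 13 probes with no remaining spot were dropped. Limma 3.58.1 (R 4.3.3) compared the genotypes over all 38882 tested probes, two-sided, with Benjamini-Hochberg adjustment and no covariate. The SE of a difference is limma's moderated standard error, and an adjusted p under 0.05 counted as passing. The script was tested on simulated data.

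Named V1R probes are all tested within 5 Mb of Gipr, up to 12 others whose genotypes do not overlap, those above background in only 1 genotype, and up to 6 with the smallest difference. Of the other lists, Trpc2, Gnai2, Gnao1, Omp, Gng8 and up to 4 more of lowest p are named. Genes named for their sequences or spots were added. Members and lists were chosen with earlier results of these data known. Accessions of 174 of the 176 probes matched RefSeq genes of GRCm38.p6, used for names only, and the 2 unmatched are named Vmn1r90 in the files. P-values measure the spread between the arrays of the 3 animals of each genotype that the series design states.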

Additional observations from a re-analysis of the deposited data

How the results depend on the processing

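The count of passing V1R probes was 1 under normexp background correction (adjusted p = 0.0234) and 1 with a mean-variance trend and robust fit (0.0362), and 0 under quantile normalisation, another scaling percentile, the authors' value table, no filter, a filter on all 6 arrays, array weights, 1 probe for each gene, the replicate block and each omitted array. The replicate numbers did not pair the samples (correlations of same-numbered deviations 0.058, -0.024 and -0.003), and with the number as a block the medians by location were as in the main comparison, 0.48 within 5 Mb. The median within 5 Mb was 0.149 under normexp and -0.0664 without a filter on dim probes, and ran between 0.359 and 0.571 when 1 array was left out. On the rest of chromosome 7 it was 0.0274 under normexp, -0.166 without a filter, 0.281 with array weights and 0.0101 with 1 probe for each gene, and ran between -0.0223 and 0.275 with an array left out. On other chromosomes it stayed below 0 in every setting run, between -0.148 and -0.0416 with an array left out. The weaker detection flag gave 82 tested V1R probes, and a window of 10 Mb held 21. Probes lower on every knockout array numbered 3 under normexp and between 1 and 9 with an array left out, and those higher 13 to 15, a count chosen after seeing the data. Leaving out an array can only keep or raise these counts, so their rise says nothing about stability. No list of vomeronasal genes had a passing member in any setting (0). Of 378 values of single probes, 352 kept their sign and side of the threshold, 2 came to pass (both of Vmn1r181) and 24, of 10 probes that passed nowhere, changed sign. Under normexp Vmn1r168 was -0.00873, Vmn1r90 -0.0104, Vmn1r40 -0.00828, Vmn1r27 -0.0078 and Vmn1r70 -0.00265, and with array weights Vmn1r53 was 0.107. With an array left out, Vmn1r168 ran between -0.118 and 0.165, Vmn1r173 between -0.0652 and 0.123, Vmn1r70 between -0.0347 and 0.0948, Vmn1r195 between -0.151 and 0.0732, Vmn1r53 between -0.105 and 0.102, Vmn1r209 between -0.313 and 0.113, Vmn1r90 between -0.0207 and 0.265 and Vmn1r157 between -0.293 and 0.0398. The cause of these shifts was not tested.

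Depth is limited by signal over background: 96 of the 176 probes were above it on no array. Signals printed for such probes describe readings at background, and no difference between genotypes is given for any single one of them. Their differences enter only the setting without a filter on dim probes.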
